A study of Gallus gallus with 50 samples.

Results

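GCLC, GCLM, TXNRD1, PRDX6, NQO1, HMOX1 and MT3 belong to the antioxidant and redox defence of the gut lining, and they were followed here through the feeds and gut segments of a chicken experiment. They were taken as every probe set, a group of short probes for a transcript, whose single annotated gene symbol was one of these names. That gave 14 probe sets for 7 genes, of 38382 probe sets tested and 13009 genes with a symbol. All 14 were tested, with no filter on low signals. GCLC and TXNRD1 had 3 probe sets each, GCLM, PRDX6 and NQO1 had 2 each, and HMOX1 and MT3 had 1 each.

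Male Cobb 500 broilers, a meat-type chicken, received 1 of 5 feeds, and scraped mucosa of the jejunum and the ileum, the middle and last parts of the small intestine, was analysed at day 10. With 5 birds per feed and both segments of every bird, there were 50 Affymetrix chicken genome arrays from 25 birds. LPC low supplied 9.5 g/T of lysophosphatidylcholine (LPC), a phospholipid with 1 fatty acid chain, through 500 g/T of a purified preparation with its carrier. LPC high supplied 19 g/T of LPC through 1000 g/T of that preparation. Lysolecithin low was 250 g/T of lysolecithin, the phospholipid mixture from which the LPC had been purified, and carried the same 9.5 g/T of LPC. Lysolecithin high was 500 g/T of lysolecithin and carried 19 g/T of LPC. The control feed had no supplement, and the labels do not say whether it held carrier. All birds were of 1 sex and 1 strain. They were kept in adjoining floor pens of 25, and the labels do not say how feeds were assigned to pens. If each feed had a pen of its own, feed and pen cannot be told apart.

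Cells answer oxidants and reactive compounds mainly through NRF2, a transcription factor that KEAP1 holds back until it is modified. In mammals NRF2 drives both subunits of the enzyme that limits glutathione synthesis (GCLC, the catalytic one, and GCLM, its modifier), the reductase that regenerates thioredoxin (TXNRD1), a quinone reductase (NQO1) and the heme-degrading enzyme heme oxygenase (HMOX1). PRDX6 is a peroxiredoxin that in mammals reduces oxidised phospholipids and also cuts and re-forms phospholipids, LPC among them. Metallothioneins bind zinc and copper, and some are known as zinc-induced genes of the intestinal epithelium. MT1 is listed as another name of the chicken gene called MT3 here.

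The values are log2 signals, so every level below is a log2 level and every difference a log2 difference unless called a fold, and a difference of 1 is a 2-fold change. A difference counts as passing only when its p-value, adjusted over all 38382 probe sets, was under 0.05. The gene's probe set with the highest mean is described first. Arrays of whole scrapings cannot tell fewer cells of a type from less RNA per cell.

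The scrapings carried high enterocyte markers, whose list averaged 12.25 ± 0.13 in the jejunum and 12.29 ± 0.11 in the ileum (SD, n = 25 each). A score of 8 jejunum minus 8 ileum marker genes put 4 arrays on the other segment's side: jejunum of control replicate 2, jejunum of LPC low replicate 4, ileum of LPC low replicate 1 and ileum of lysolecithin high replicate 4. The scores of these 2 jejunum arrays were -5.09 and -5.64, against -0.38 to 4.10 on the other 23 jejunum arrays. The scores of these 2 ileum arrays were 3.19 and 1.94, against -5.83 to -3.27 on the other 23. The 5′ minus 3′ signal of actin, GAPDH and EF1A control probe sets, an index that falls when RNA is degraded or labelled short, also moved with feed. In the jejunum it averaged -0.72 ± 0.27 on LPC low, -0.46 ± 0.10 on LPC high, -0.66 ± 0.16 on lysolecithin low and -0.64 ± 0.29 on lysolecithin high, against -0.97 ± 0.14 in control birds (SD, n = 5 each). In the ileum the order was less clear, with -0.70 ± 0.30, -0.56 ± 0.08, -0.70 ± 0.14 and -0.55 ± 0.19 on the same 4 feeds, against -0.80 ± 0.14 in control birds. Values from fits without the 4 arrays, and from fits with the index as a covariate, are given beside results that they moved. The covariate fits kept the 4 arrays, and no fit made both changes.

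The first comparison asks what each supplemented feed did in the jejunum. None of the 14 probe sets passed for any of the 4 feeds. The share of all probe sets that passed was 0.00261% for LPC low, 0.112% for LPC high, 0.0495% for lysolecithin low and 0.829% for lysolecithin high. PRDX6 had the clearest separation of birds, and NQO1 and MT3 were higher mainly on the high levels. At an unadjusted p under 0.05, 2 member probe sets differed on LPC low, 5 on LPC high, 4 on lysolecithin low and 6 on lysolecithin high, where 8.56%, 10.9%, 8.92% and 17.8% of all probe sets did. On lysolecithin high, 6 of the 7 genes, all but TXNRD1, were above control, where 44.8% of all probe sets were. The median difference of the 7 was 0.60, against -0.02 over all probe sets and 0.03 over all genes by their brightest probe set. In an F-test of any feed effect, 9 of the 14 had an unadjusted p under 0.05, where 13.8% of all probe sets had one and 0.13% passed. They included the brightest probe set of 6 genes. TXNRD1 entered only through its dimmest probe set, with a mean of 2.61 (F-test, unadjusted p = 0.0468). Its brightest probe set had an unadjusted p of 0.496. The 4 feed comparisons share the same 5 control birds.

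In the ileum none of the 14 probe sets passed either, where 0.0313% of all probe sets passed for LPC low, 0% for LPC high, 0.875% for lysolecithin low and 0.216% for lysolecithin high. Unadjusted p-values under 0.05 were found for 4, 3, 4 and 2 member probe sets on these feeds, where 12.1%, 9.97%, 14.2% and 8.96% of all probe sets had one. All 4 member probe sets of lysolecithin low were lower than control, and they were those of GCLC and GCLM. On that feed 1 of the 7 genes was above control, PRDX6 by 0.08, where 54.3% of all probe sets were. The median difference of the 7 was -0.45, against 0.02 over all probe sets and 0.01 over all genes by their brightest probe set. The F-test of any feed effect gave an unadjusted p under 0.05 for 5 of the 14, where 14.6% of all probe sets had one and 0.138% passed.

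**Figure D1:**
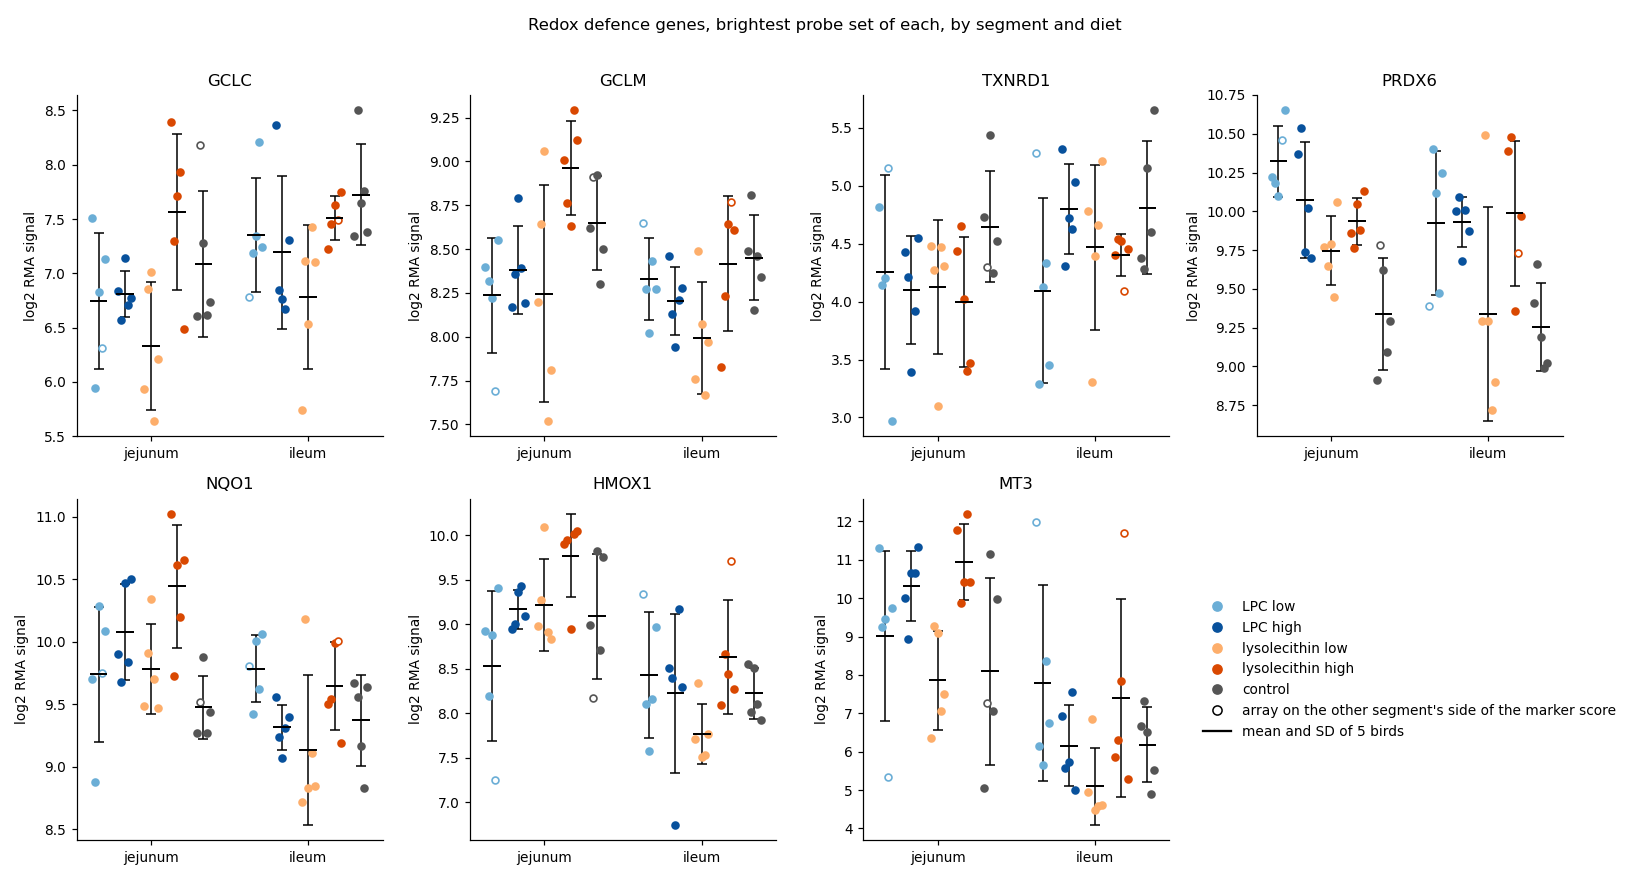
Log2 signal of the brightest probe set of each of the 7 genes (vertical axis) in every bird, by feed within the jejunum and the ileum; bars and error bars are the mean and SD of 5 birds, and open symbols are the 4 arrays on the other segment's side of the marker score. PRDX6 in the jejunum reached 10.65 on supplemented feeds, against 9.78 at most in control birds, and MT3 spread from 4.49 to 12.19.

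GCLC, the catalytic subunit of glutathione synthesis, was lowest on lysolecithin low in both segments. In the ileum its brightest probe set read 5.74, 7.11, 6.53, 7.43 and 7.10 on lysolecithin low, against 7.34, 8.50, 7.65, 7.76 and 7.38 in control birds. On that feed 4 of the 5 birds lay below every control bird. The difference was -0.94 ± 0.34 (SE; 95% interval -1.64 to -0.25; limma, adjusted p = 0.182), and the second probe set gave -0.80 ± 0.29 (adjusted p = 0.188). In the jejunum the 5 birds on lysolecithin low read 5.93, 6.86, 7.01, 5.64 and 6.21, against 6.61, 8.18, 7.28, 6.62 and 6.74 in control birds. Below every control bird lay 3, and 2 lay within the control range. That difference was -0.76 ± 0.35 (adjusted p = 0.535), or -0.52 ± 0.35 without the 2 jejunum arrays on the other segment's side, 1 of which is the highest control bird. On lysolecithin high the jejunum averaged 7.56 ± 0.72, against 7.09 ± 0.67 in control birds (SD, n = 5 each; adjusted p = 0.399). The third GCLC probe set stayed between 2.49 and 2.88 on all 50 arrays, and the 2 brighter ones followed each other over birds (r = 0.90 in the jejunum and 0.88 in the ileum, 25 arrays each, which share the same array for both readings).

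GCLM, the modifier subunit, showed the same lowest feed in the ileum. Its brightest probe set read 7.76, 8.49, 8.07, 7.67 and 7.97 on lysolecithin low, against 8.49, 8.81, 8.15, 8.46 and 8.34 in control birds. Again 4 of the 5 birds lay below every control bird. The difference was -0.46 ± 0.17 (adjusted p = 0.197), and the second probe set gave -0.46 ± 0.16 (adjusted p = 0.184). In the jejunum the highest GCLM levels were those of lysolecithin high, at 9.01, 8.76, 8.63, 9.29 and 9.12, against 8.62, 8.91, 8.92, 8.30 and 8.50 in control birds. These groups overlapped, with a difference of 0.34 ± 0.24 (adjusted p = 0.459), or 0.60 ± 0.25 (adjusted p = 0.194) with the index as a covariate. The second probe set differed by 0.40 ± 0.17 (adjusted p = 0.232).

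TXNRD1, which keeps thioredoxin reduced, had its 3 probe sets in the lower part of the array, with means of 4.37, 3.47 and 2.61 where the median probe set mean was 4.65. Its brightest probe set was below control on all 4 feeds in the jejunum, with differences of -0.32, -0.53, -0.52 and -0.58 on LPC low, LPC high, lysolecithin low and lysolecithin high and a lowest adjusted p of 0.412. Without the 2 doubtful jejunum arrays the LPC low value was -0.70 ± 0.36 (adjusted p = 0.593). The largest gap was in the ileum on LPC low, where the 5 birds read 5.28, 3.29, 4.13, 4.33 and 3.45, against 4.38, 4.28, 5.15, 4.60 and 5.65 in control birds. Of the 5, 3 lay below every control bird, and the groups overlapped. The difference was -0.76 ± 0.36 (adjusted p = 0.400). The highest of the 5, replicate 1, is the ileum array on the jejunum side of the score. Without the 2 ileum arrays in doubt the difference was -1.22 ± 0.31 (adjusted p = 0.0461), in a fit in which 2.04% of all probe sets passed. With the index as a covariate it was -0.58 ± 0.31 and did not pass (adjusted p = 0.493). The dimmer TXNRD1 probe sets differed there by -0.03 and -0.09 without the arrays in doubt, and by 0.02 and -0.08 with the covariate. The third and dimmest TXNRD1 probe set was lower than every control bird in all 5 jejuna of LPC high and of lysolecithin high, with differences of -0.22 and -0.23 (adjusted p = 0.305 and 0.170), where 1.7% and 1.83% of all probe sets had every bird below every control bird. The 3 probe sets followed each other only loosely over birds, with r of 0.20 to 0.52 apart from 1 pair at -0.20 in the ileum.

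PRDX6 was the member most clearly higher on the supplemented feeds. In the jejunum its brightest probe set read 10.22, 10.18, 10.10, 10.46 and 10.65 on LPC low and 10.37, 10.54, 9.74, 10.02 and 9.70 on LPC high. It read 9.77, 9.65, 9.79, 9.45 and 10.06 on lysolecithin low and 9.86, 9.76, 10.05, 9.88 and 10.13 on lysolecithin high, against 8.91, 9.78, 9.62, 9.09 and 9.29 in control birds. Every LPC low bird exceeded every control bird, and across the 4 feeds 14 of 20 supplemented birds did so, a count that 2.83% of all probe sets reached. The differences from control were 0.99 ± 0.17 (95% interval 0.63 to 1.34) on LPC low, 0.70 ± 0.17 (0.34 to 1.06) on LPC high, 0.41 ± 0.17 (0.05 to 0.76) on lysolecithin low and 0.60 ± 0.17 (0.24 to 0.96) on lysolecithin high. Their adjusted p-values were 0.0826, 0.0916, 0.485 and 0.0944, so none passed. As folds these are 1.98, 1.63, 1.33 and 1.52.

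The second PRDX6 probe set gave larger differences in the same order of feeds. In the jejunum of LPC high it read 9.29, 9.28, 8.54, 8.79 and 8.54, and on lysolecithin high 8.79, 8.32, 8.84, 8.25 and 8.91, against 7.15, 8.00, 7.87, 7.54 and 7.79 in control birds. Neither feed overlapped the control birds, and over the 4 feeds 19 of 20 supplemented birds were above all 5, as for 0.149% of all probe sets. The differences were 1.16 ± 0.23 (0.67 to 1.65; adjusted p = 0.0539) on LPC high, 0.67 ± 0.23 (0.19 to 1.15; adjusted p = 0.356) on lysolecithin low and 0.92 ± 0.23 (0.43 to 1.40; adjusted p = 0.0673) on lysolecithin high. On LPC low, where the gene's largest difference was found, all 5 birds were again above all 5 control birds, at 8.49 to 9.67 against 7.15 to 8.00. Every bird was above every control bird in 0.719% of all probe sets on LPC low, 1.97% on LPC high and 1.4% on lysolecithin high. With the bird as a random block in a joint fit of the segments, the LPC high difference was 1.20 and passed (adjusted p = 0.0464). In that fit 198 of all probe sets passed on LPC high in the jejunum, where 43 did in the main fit. An F-test of any feed effect in the jejunum gave an adjusted p of 0.0785 and 0.0618 for the 2 probe sets. Both probe sets were above control in each of the 3 batches on all 4 feeds, the second by 0.56 to 1.84.

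In the ileum PRDX6 was higher on 3 of the 4 feeds. The brightest probe set read 10.00, 10.09, 9.68, 10.01 and 9.87 on LPC high and 10.39, 10.48, 9.36, 9.73 and 9.97 on lysolecithin high, against 9.41, 9.66, 9.19, 8.99 and 9.02 in control birds. All LPC high birds and 4 of the lysolecithin high birds exceeded every control bird; on the second probe set all birds of both feeds did, where 1.14% and 0.521% of all probe sets had every bird above. The differences were 0.69 ± 0.26 (adjusted p = 0.392) and 0.81 ± 0.26 (adjusted p = 0.303), and lysolecithin low differed by 0.08 ± 0.26 (adjusted p = 0.919). LPC low read 9.39, 10.40, 10.12, 9.47 and 10.25, a difference of 0.75 ± 0.26 (adjusted p = 0.252). Its lowest bird, replicate 1, is the ileum array on the jejunum side of the score, and without the doubtful arrays the difference was 1.02 ± 0.26 (adjusted p = 0.0426), and 1.23 ± 0.30 for the second probe set (adjusted p = 0.0392). In the first batch both probe sets were below control on LPC low, at -0.14 and -0.33, and the only LPC low bird of that batch is this replicate 1.

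PRDX6 also moved with the 5′ minus 3′ index. The relations below, also those within batches, are over all feeds together, so they hold differences between feeds as well. Over the 23 ileum arrays on their own side of the score, the brightest probe set and the index had r = 0.74 and rho = 0.74 (permutation p = 4e-05, adjusted p = 0.0014 over 70 relations), 0.70 without the 2 farthest arrays and 0.78, 0.94 and 0.61 within the 3 batches. Over the 23 jejunum arrays they had r = 0.52 and rho = 0.42 (permutation p = 0.0122, adjusted p = 0.0473), 0.42 without the 2 farthest arrays and 0.74, 0.22 and 0.49 within batches. With the index as a covariate the jejunum differences of the second probe set were 1.00, 0.42, 0.21 and 0.45 on LPC low, LPC high, lysolecithin low and lysolecithin high, and none passed. Those of the brightest probe set were 0.83, 0.36, 0.20 and 0.39. In the ileum the second probe set then differed by 0.61, 0.35, -0.10 and 0.28, and the brightest by 0.57, 0.24, -0.08 and 0.37. All these values except those of lysolecithin low in the ileum kept the direction found without the covariate, at a smaller size. Without the arrays in doubt the jejunum differences of the second probe set were 1.33, 1.26, 0.76 and 1.00.

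**Figure D2:**
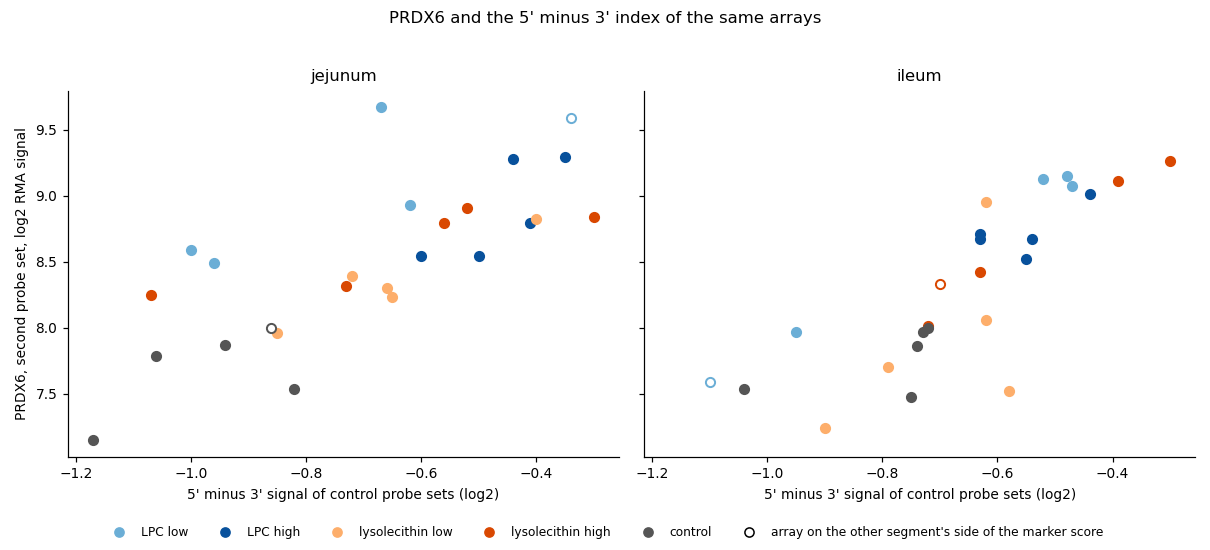
Log2 signal of the second PRDX6 probe set (vertical axis) against the log2 5′ minus 3′ index of control transcripts (horizontal axis), 1 point per array, in the jejunum and the ileum, coloured by feed. Control birds lie at the lower left of the jejunum panel, with an index of -0.97 on average, and 4 of the 5 read lower in PRDX6 than every supplemented bird.

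NQO1, which reduces quinones without releasing radicals, was highest in the jejunum of birds on lysolecithin high. Its brightest probe set read 11.02, 9.73, 10.61, 10.20 and 10.65 on lysolecithin high and 9.90, 9.68, 10.47, 9.84 and 10.50 on LPC high, against 9.27, 9.52, 9.88, 9.27 and 9.44 in control birds. On lysolecithin high 4 of the 5 birds, and on LPC high 3 of the 5, were above all control birds. The differences were 0.95 ± 0.27 (95% interval 0.40 to 1.50; adjusted p = 0.0882), a fold of 1.93, and 0.60 ± 0.27 (0.05 to 1.15; adjusted p = 0.405). With the bird as a random block over both segments, 847 of all probe sets passed on lysolecithin high in the jejunum, where 318 did in the main fit. The NQO1 difference on that feed was then 0.97 and passed (adjusted p = 0.0332). Leaving out 1 bird at a time gave 0.74 to 1.16 (adjusted p = 0.286 to 0.0259), and it passed in 1 of these 10 fits, the one without replicate 2 of lysolecithin high, the lowest bird of that feed. Within the 3 batches it was 1.62, 0.60 and 0.99, and with the 5′ minus 3′ index as a covariate 0.82 (adjusted p = 0.157). On LPC high the covariate left 0.39 ± 0.35 (adjusted p = 0.775). The low levels gave 0.25 ± 0.27 (LPC low) and 0.31 ± 0.26 (lysolecithin low), and 0.15 and 0.17 with the covariate.

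The second NQO1 probe set did not follow the first. It differed by 0.11 ± 0.16 (adjusted p = 0.757) on lysolecithin high in the jejunum, or -0.02 ± 0.18 with the index as a covariate, and over the birds of a segment the 2 probe sets had r = 0.35 in the jejunum and 0.40 in the ileum. Its largest difference was in the ileum on LPC low, with 5.78, 5.94, 6.63, 5.82 and 6.22, against 5.74, 5.29, 5.73, 5.67 and 5.79 in control birds. Above all control birds were 4 of the 5, for a difference of 0.46 ± 0.14 (adjusted p = 0.195), and the brightest probe set gave 0.44 ± 0.23 there (adjusted p = 0.455).

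HMOX1, which opens the heme ring to biliverdin, iron and carbon monoxide, had 1 probe set and a lowest adjusted p of 0.363 over the 8 feed comparisons. On lysolecithin high the jejunum read 9.90, 9.95, 8.95, 10.02 and 10.05, against 8.99, 8.17, 9.82, 8.71 and 9.76 in control birds. Above all control birds were 4 of the 5, for a difference of 0.64 ± 0.37 (adjusted p = 0.363). The lowest control bird, at 8.17, is the jejunum array of control replicate 2 on the ileum side of the score. Without the doubtful arrays the difference was 0.41 ± 0.29 (adjusted p = 0.461), and with the index as a covariate 1.11 ± 0.37 (adjusted p = 0.12). LPC low was below control in the jejunum, at -0.60 ± 0.37 (adjusted p = 0.673), and its lowest bird, at 7.25, is the jejunum array of replicate 4 on the ileum side of the score. That value was -0.47 ± 0.31 without the doubtful arrays and -0.25 ± 0.35 with the covariate. In the ileum the differences lay between -0.45 on lysolecithin low and 0.41 on lysolecithin high, the second of which was 0.18 without the doubtful arrays.

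MT3, a metallothionein, varied more between birds than any other member, with an SD of 2.37 over all 50 arrays against 0.79 for HMOX1, the next among the brightest probe sets. In the jejunum its probe set read 11.77, 9.88, 10.42, 12.19 and 10.43 on lysolecithin high and 10.01, 8.93, 10.66, 10.66 and 11.33 on LPC high, against 5.06, 7.26, 11.14, 7.05 and 9.98 in control birds. All 10 birds on the high levels exceeded 3 of the control birds, and the groups overlapped because 2 control birds were as high. The control bird at 7.26 is replicate 2, whose jejunum array lies on the ileum side of the score. The differences were 2.76 ± 1.05 (95% interval 0.56 to 4.95; adjusted p = 0.184) on lysolecithin high and 2.24 ± 1.05 (0.05 to 4.43; adjusted p = 0.445) on LPC high. LPC low, at 11.30, 9.26, 9.46, 5.34 and 9.74, differed by 0.84 ± 1.05, or 1.63 ± 0.99 without the doubtful arrays, of which the bird at 5.34 is 1. Lysolecithin low differed by -0.24 ± 1.04. With the index as a covariate the MT3 differences were larger on 3 feeds and changed sign on the other, at 1.74 ± 1.03 on LPC low, 4.18 ± 1.26 (adjusted p = 0.365) on LPC high, 0.95 ± 1.07 on lysolecithin low and 3.97 ± 1.09 (adjusted p = 0.0756) on lysolecithin high. Within batches the lysolecithin high difference was 5.61, 1.05 and 1.33, so the first batch, which holds the control bird at 5.06, carried most of it. In the ileum the highest readings were 11.98 and 11.71, and they came from the 2 ileum arrays on the jejunum side of the score.

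**Figure D3:**
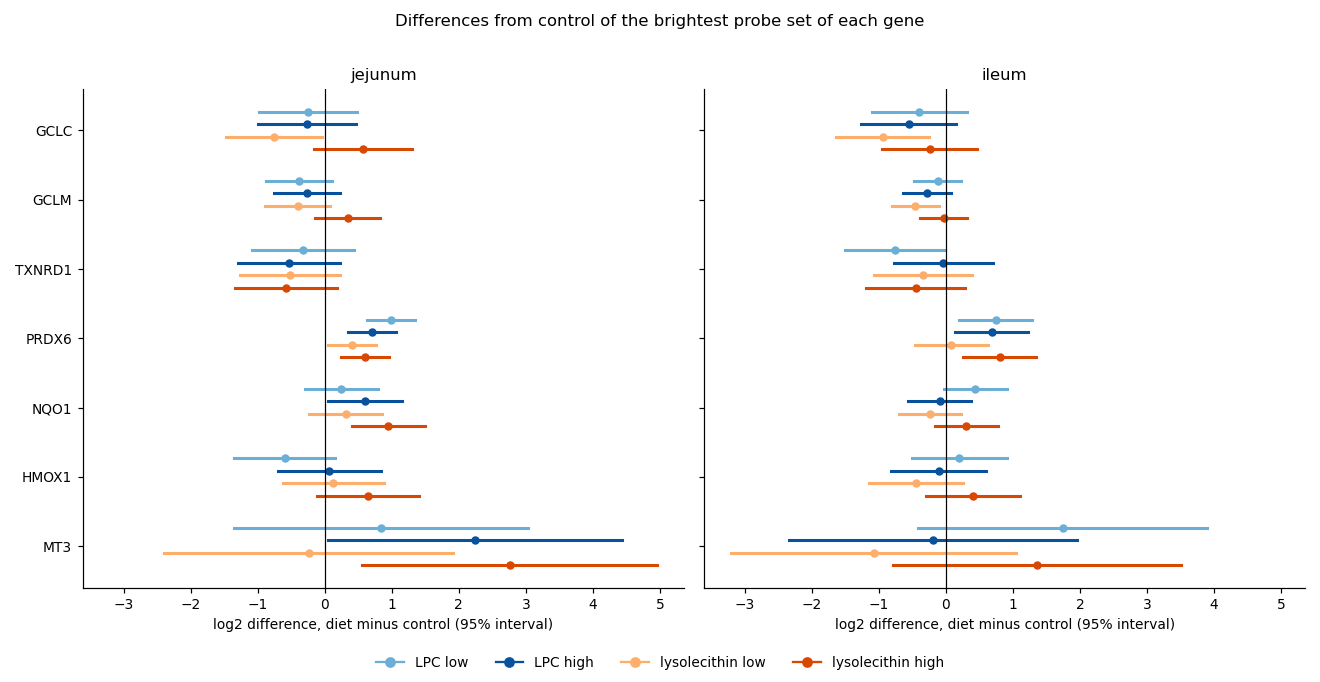
Log2 difference from control, with its 95% interval, of the brightest probe set of each gene (horizontal axis) for the 4 feeds in the jejunum and the ileum. The PRDX6 intervals of all 4 feeds exclude 0 in the jejunum, from 0.41 on lysolecithin low to 0.99 on LPC low, while no value passed after adjustment over all probe sets.

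The products were compared at equal LPC, lysolecithin over purified LPC, which gave 4 comparisons, 1 per level and segment. No member passed in any of them, where 0% of all probe sets passed in both jejunum comparisons, 0.0365% at the low level in the ileum and 0% at the high level in the ileum. At the low level PRDX6 was lower on lysolecithin than on LPC in both segments. In the jejunum all 5 lysolecithin low birds, at 9.45 to 10.06, lay below all 5 LPC low birds, at 10.10 to 10.65, as in 0.203% of all probe sets, and the difference was -0.58 ± 0.17 (95% interval -0.94 to -0.22; adjusted p = 0.775). In the ileum it was -0.66 ± 0.26 (-1.21 to -0.12; adjusted p = 0.291). NQO1 in the ileum read 8.72, 10.18, 8.83, 9.11 and 8.85 on lysolecithin low, against 9.81, 9.42, 10.01, 9.62 and 10.06 on LPC low, for a difference of -0.67 ± 0.23 (adjusted p = 0.204). All but replicate 2 lay below every LPC low bird, and the second NQO1 probe set differed by -0.43 ± 0.14 (adjusted p = 0.201).

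At the high level in the jejunum, both subunits of glutathione synthesis were higher on lysolecithin than on LPC. GCLC averaged 7.56 ± 0.72 on lysolecithin high and 6.81 ± 0.21 on LPC high, with a difference of 0.83 ± 0.35 (0.10 to 1.56; adjusted p = 0.797). The second GCLM probe set read 9.18, 8.61, 8.69, 8.69 and 8.53 on lysolecithin high, against 8.32, 8.34, 8.49, 8.46 and 8.30 on LPC high, and these birds did not overlap, where 0.409% of all probe sets had every lysolecithin high bird above every LPC high bird. That difference was 0.37 ± 0.17 (0.02 to 0.73; adjusted p = 0.797), and the brightest GCLM probe set gave 0.60 ± 0.24 (0.11 to 1.09; adjusted p = 0.797). PRDX6 differed there by -0.10 with an interval of -0.46 to 0.26, which leaves room for a difference of either sign, and by 0.02 with the index as a covariate. In the ileum at the high level 0 of 14 member probe sets reached an unadjusted p under 0.05, where 3.48% of all probe sets did. At the low level 3 did in the jejunum and 5 in the ileum, and at the high level 3 in the jejunum, where 5.21%, 12.6% and 6.11% of all probe sets did.

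MT3 in the ileum was lower on lysolecithin low than on LPC low, at 4.94, 6.86, 4.49, 4.58 and 4.62, against 11.98, 6.16, 5.66, 8.36 and 6.75. The difference was -2.82 ± 1.03 (95% interval -4.97 to -0.68; adjusted p = 0.247), and the LPC low bird at 11.98 is the ileum array on the jejunum side of the score. Without the doubtful arrays the difference was -1.87 ± 0.67 (adjusted p = 0.185). MT4, the metallothionein next to MT3 in the RefSeq gene order, had a difference of -3.01 ± 0.66 there (adjusted p = 0.071), averaging 9.17 ± 1.72 on lysolecithin low and 12.14 ± 1.03 on LPC low (SD, n = 5 each). Of the 109 genes of the wider antioxidant lists, SLC30A7, a zinc transporter of the Golgi, passed in this comparison (0.91 ± 0.17, adjusted p = 0.0495). Of all 13009 genes, each by its brightest probe set, 0.0307% did. SLC30A7 was dim, with a mean of 3.71 where the median probe set mean was 4.65.

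High and low levels were then compared with both products together. In the jejunum no member passed, where 0% of all probe sets passed, but 6 of the 14 had an unadjusted p under 0.05 and all 6 were higher on the high level, where 7.56% of all probe sets were. They were MT3, GCLC, both GCLM probe sets, NQO1 and HMOX1. MT3 averaged 10.63 ± 0.95 on the high levels and 8.44 ± 1.81 on the low levels (SD, n = 10 each), with a difference of 2.20 ± 0.74 (95% interval 0.66 to 3.74; adjusted p = 0.202). GCLC differed by 0.66 ± 0.25 (adjusted p = 0.240), NQO1 by 0.50 ± 0.19 (adjusted p = 0.238), HMOX1 by 0.59 ± 0.26 (adjusted p = 0.295; 0.39 ± 0.20 without the doubtful arrays) and GCLM by 0.44 ± 0.17 (adjusted p = 0.243) and 0.41 ± 0.12 (adjusted p = 0.169). PRDX6 differed by -0.04 ± 0.12, with an interval of -0.30 to 0.21. In the ileum 1 member probe set, the second of NQO1, had an unadjusted p under 0.05, at -0.25 ± 0.10 (adjusted p = 0.371), where 11.1% of all probe sets had one and 0% passed.

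Other measures moved with the level in the jejunum. The median segment score was 2.50 on LPC high and 3.50 on lysolecithin high, against 0.23 on LPC low and 1.42 on lysolecithin low, with control birds at 0.67. The fibroblast list averaged 7.58 and 7.98 on the high levels, against 6.47 and 6.13 on the low levels, with control birds at 6.71, and the macrophage list 8.37 and 8.41, against 7.78 and 7.67, with control birds at 7.86. Their part in the differences between levels was not tested. Without the doubtful arrays the MT3 difference was 1.63 ± 0.65 (adjusted p = 0.375), and with the 5′ minus 3′ index as a covariate it was 2.73 ± 0.71 (adjusted p = 0.055), in a fit in which 530 probe sets passed and none was a member.

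The jejunum was compared with the ileum of the same birds. MT3, HMOX1 and NQO1 were higher in the jejunum, and no member was lower past the threshold. These 3 of 14 probe sets are a share near that of the whole array, of which 19.7% passed, 9.92% higher and 9.8% lower in the jejunum. MT3 ran from 5.06 through a median of 9.74 to 12.19 in the jejunum, against 4.49, 6.16 and 11.98 in the ileum. It was higher in the jejunum of 21 of 25 birds, by 2.72 ± 0.43 (95% interval 1.84 to 3.60; limma, adjusted p = 4.62e-05), a fold of 6.60. Of the 4 exceptions 3 were birds with an array on the other segment's side, and without the 4 birds that had such an array MT3 was higher in 20 of 21 by 3.40 ± 0.34 (adjusted p = 7.85e-08). MT4 was higher as well, by 1.49 ± 0.33 (adjusted p = 0.00163).

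HMOX1 ran from 7.25 through 9.01 to 10.09 in the jejunum, against 6.75, 8.27 and 9.71 in the ileum. It was higher in the jejunum of 23 of 25 birds, by 0.90 ± 0.16 (0.57 to 1.22; adjusted p = 0.000169), a fold of 1.86. Without the 4 birds it was higher in all 21, by 1.11 ± 0.15 (adjusted p = 2.98e-06). The macrophage list, whose cells degrade heme, averaged 8.02 ± 0.58 in the jejunum and 8.07 ± 0.30 in the ileum. Its members differed in direction, with CSF1R at 5.90 in the jejunum and 5.61 in the ileum and CD74 at 12.98 and 13.34. The erythrocyte list averaged 6.36 ± 0.40 and 6.29 ± 0.37, and both lists had ranges that overlapped. The part of these cells in the HMOX1 difference was not tested. NQO1 ran from 8.88 through 9.84 to 11.02 in the jejunum, against 8.72, 9.50 and 10.18 in the ileum, and was higher in 19 of 25 birds by 0.45 ± 0.11 (0.22 to 0.68; adjusted p = 0.00486). Its second probe set differed by 0.05 ± 0.07 (adjusted p = 0.63). Within the 3 batches MT3 differed by 1.73, 3.54 and 2.80, HMOX1 by 0.65, 1.29 and 0.70, and NQO1 by 0.28, 0.58 and 0.48.

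The remaining members did not pass with all birds in the fit. GCLC had a lower mean in the jejunum, at 6.91 ± 0.68 against 7.31 ± 0.59 in the ileum (SD, n = 25 each), by -0.41 ± 0.15 (adjusted p = 0.0525), and -0.43 ± 0.15 (adjusted p = 0.0338) without the 4 birds. Its second probe set differed by -0.27 ± 0.12 (adjusted p = 0.122), and by -0.32 ± 0.12 (adjusted p = 0.0603) without them. GCLM was higher by 0.22 ± 0.08 (adjusted p = 0.0687) and 0.20 ± 0.07 (adjusted p = 0.0525), and without the 4 birds by 0.28 and 0.29 (adjusted p = 0.018 and 0.00492), where 23.6% of all probe sets passed. TXNRD1, also lower in the jejunum on average, differed by -0.29 ± 0.12 (adjusted p = 0.0945) and PRDX6 by 0.20 ± 0.10 (adjusted p = 0.164).

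**Figure D4:**
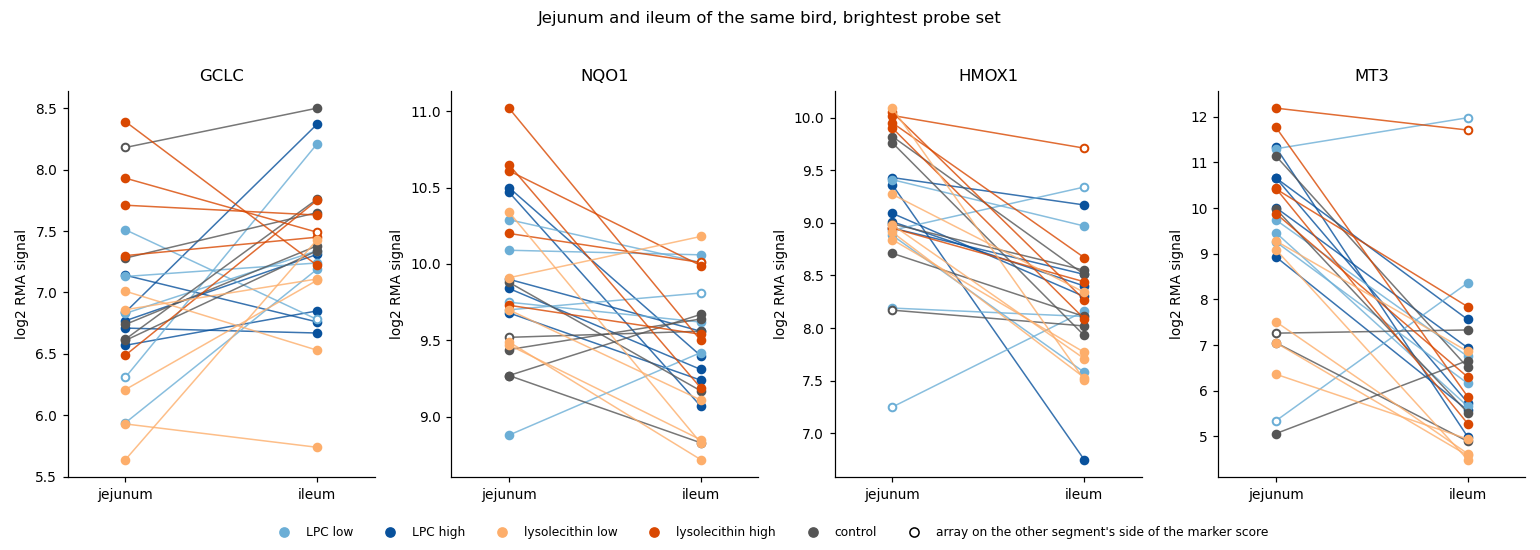
Log2 signal (vertical axis) of GCLC, NQO1, HMOX1 and MT3 in the jejunum and the ileum of each of the 25 birds, with a line joining the 2 arrays of a bird; open symbols are the arrays on the other segment's side of the score. MT3 was higher in the jejunum of 21 birds and HMOX1 of 23, while GCLC was higher there in 8.

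Whether the effect of feed differed between the segments was tested on the difference between the 2 arrays of a bird, and no member passed, where 0.00521% of all probe sets did. At an unadjusted p under 0.05 there were 2 of 14, where 10.3% of all probe sets had one. NQO1 gave the lowest p (F-test, unadjusted p = 0.0266, adjusted p = 0.432) and HMOX1 the next among the brightest probe sets (unadjusted p = 0.0487, adjusted p = 0.483). The jejunum of a bird exceeded its ileum in NQO1 by 0.76 ± 0.46 on LPC high and 0.80 ± 0.66 on lysolecithin high, in 5 of 5 birds each, and by 0.10 ± 0.46 in control birds, in 2 of 5 (mean ± SD). On lysolecithin low the NQO1 difference was 0.64 ± 0.63, higher in 4 of 5 birds, and on LPC low -0.04 ± 0.31, higher in 3 of 5. The second NQO1 probe set had an unadjusted p of 0.0946 in the F-test (adjusted p = 0.564). HMOX1 was higher in the jejunum of 5 of 5 birds on each feed except LPC low, with 3 of 5. Both exceptions are LPC low birds with an array on the other segment's side, since HMOX1 was higher in the jejunum of all 21 birds without one. MT3 was higher in 5 of 5 birds on LPC high, lysolecithin low and lysolecithin high, and in 3 of 5 on LPC low and in the control group, and 3 of these 4 exceptions were birds with such an array.

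MT3 and the segment score were set beside each other. Over all arrays the high MT3 signals lay on the jejunum side, including those of the 2 ileum arrays placed there, and of the 2 jejunum arrays on the ileum side 1 read 5.34 and the other 7.26. Among the 23 jejunum arrays on their own side, MT3 and the score had r = 0.55 and rho = 0.45 (permutation p = 0.00583, adjusted p = 0.034 for r and 0.0966 for rho over 70 relations), 0.63 without the 2 farthest arrays and 0.40, 0.66 and 0.67 within batches. HMOX1 and the score had r = 0.69 and rho = 0.65 (permutation p = 0.00048, adjusted p = 0.00672), 0.70 without the 2 farthest arrays and 0.66, 0.87 and 0.52 within batches. GCLM and the score had r = 0.54 and rho = 0.45 (permutation p = 0.008, adjusted p = 0.0354 for r and 0.0966 for rho). Without the 2 farthest arrays the GCLM r was 0.63, and within batches 0.37, 0.79 and 0.44. These arrays include all feeds, so the relations hold differences between feeds as well. Over the 23 ileum arrays on their own side, 0 of the 7 members had a relation with the score that passed.

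**Figure D5:**
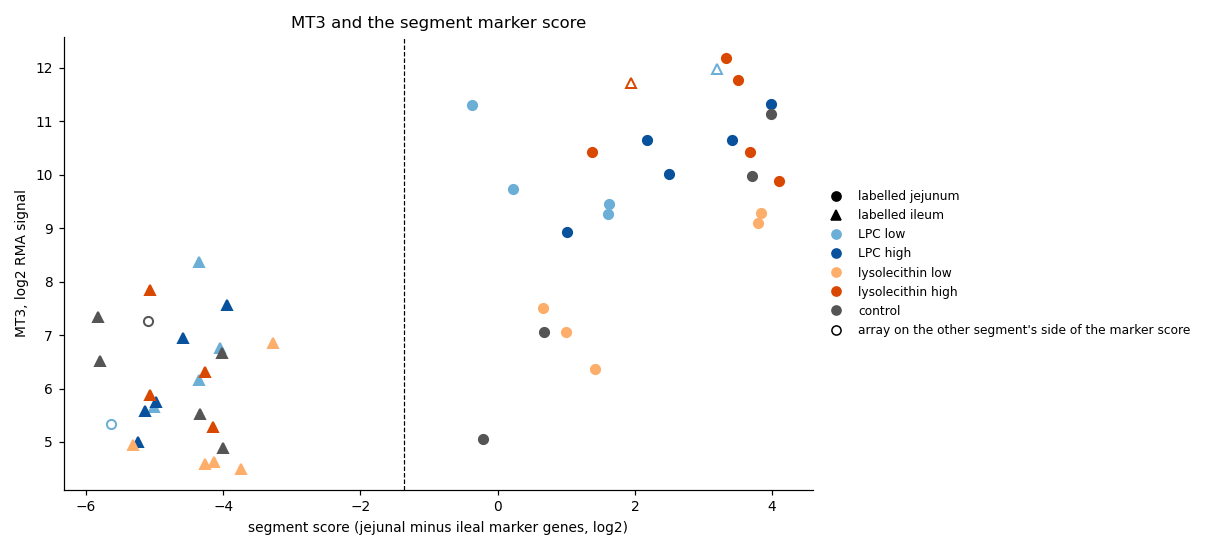
Log2 signal of MT3 (vertical axis) against the segment score, the mean log2 signal of jejunum markers minus that of ileum markers (horizontal axis), for 25 jejunum arrays (circles) and 25 ileum arrays (triangles), coloured by feed, with the halfway score of -1.36 as a dashed line. The 2 ileum arrays to the right of the line read 11.98 and 11.71, above all other ileum arrays.

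The members did not vary as 1 block over birds. Of the 21 gene pairs, 8 in the jejunum and 6 in the ileum were related past an adjusted p of 0.05 (70 relations in all, 23 arrays per segment, all feeds together). The share of all gene pairs on the array with such a relation was not counted, so these counts do not set the members apart. GCLM and HMOX1 had the closest relation in the jejunum, with r = 0.75 and rho = 0.80 (permutation p = 2e-05, adjusted p = 0.0014), 0.77 without the 2 farthest arrays and 0.87, 0.67 and 0.95 within batches. The 2 subunits GCLC and GCLM had r = 0.69 and rho = 0.63 (permutation p = 0.0003, adjusted p = 0.00525), 0.57 without the 2 farthest arrays and 0.73, 0.79 and 0.66 within batches. MT3 was related to GCLC with r = 0.70 and rho = 0.70 (permutation p = 0.00024, adjusted p = 0.00525), 0.64 without the 2 farthest and 0.79, 0.72 and 0.73 within batches. After removing segment, feed and batch, with both segments together, the relations were looser. GCLM and HMOX1 then had r = 0.52, GCLC and GCLM 0.50, and GCLC and MT3 0.48.

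NQO1 and MT3 were related in both segments. They had r = 0.62 and rho = 0.63 in the jejunum (permutation p = 0.00172, adjusted p = 0.0134), 0.64 without the 2 farthest and 0.75, 0.49 and 0.61 within batches. In the ileum they had r = 0.64 and rho = 0.68 (permutation p = 0.00103, adjusted p = 0.0103), 0.62 without the 2 farthest and 0.78, 0.70 and 0.50 within batches. PRDX6 and TXNRD1 ran in opposite directions in the ileum, with r = -0.59 and rho = -0.59 (permutation p = 0.0028, adjusted p = 0.0196), -0.45 without the 2 farthest and -0.45, -0.61 and -0.76 within batches. After removing segment, feed and batch, with both segments together, NQO1 and MT3 had r = 0.50, and PRDX6 and TXNRD1 -0.47.

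The wider antioxidant system was described with 8 lists of 142 gene symbols, old and new names of a gene among them, which gave 109 genes on the array. Against control 0 of the 109 passed on LPC low, LPC high and lysolecithin low in the jejunum and on LPC low, LPC high and lysolecithin low in the ileum. Of all 13009 genes, each by its brightest probe set, 0.00769%, 0.0922% and 0.0384% passed on these feeds in the jejunum and 0.0154%, 0% and 1.31% in the ileum. On lysolecithin high 1 of the 109 passed in each segment, or 0.917%, where 0.715% of all genes passed in the jejunum and 0.146% in the ileum, and 1 gene is too few to set the list apart. GSTZ1, a glutathione transferase of tyrosine breakdown, rose in the jejunum on lysolecithin high (0.94 ± 0.20, adjusted p = 0.0259), and GGT7, of the gamma-glutamyl transferase family, rose in the ileum on the same feed (0.50 ± 0.09, adjusted p = 0.026). On lysolecithin high in the jejunum the median over the 109 genes was 0.25, against 0.03 over all 13009 genes by their brightest probe set and -0.02 over all probe sets. The thioredoxin and peroxiredoxin list was above control in 18 of 18 genes, with a median of 0.25. The glutathione list was above control in 26 of 31, with a median of 0.37. The quinone, aldehyde and conjugation list had 17 of 20 (0.35), superoxide and peroxide 4 of 4 (0.41) and NADPH supply 5 of 5 (0.25). Medians were smaller for heme and iron, with 8 of 12 (0.14), NRF2 regulators, with 6 of 8 (0.10), and metal handling, with 6 of 11 (0.04). Of all probe sets 44.8% were above control on that feed, and the share over genes by their brightest probe set was not counted. The fibroblast and smooth muscle lists also averaged highest on that feed, at 7.98 and 7.02, against 6.71 and 5.89 in control birds, and their part in these medians was not tested. In the jejunum the medians of the 109 genes on LPC low, LPC high and lysolecithin low were -0.05, 0.11 and 0.01. In the ileum they were 0.05, -0.04 and -0.09 on the same feeds and 0.07 on lysolecithin high. On lysolecithin low in the ileum, 5 of 18 thioredoxin and peroxiredoxin genes were above control (median -0.22). So were 10 of 31 glutathione genes (-0.07) and 8 of 20 of the quinone, aldehyde and conjugation list (-0.17).

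Between segments 48 of the 109 genes were higher and 15 lower in the jejunum (57.8%), where 26.8% of all 13009 genes, each by its brightest probe set, passed. The lists were chosen with earlier results of these data known. All genes include dim ones and were not matched to the lists in signal, so these shares do not set the lists apart. The glutathione list gave 12 higher and 5 lower of 31. GPX4, the peroxidase for lipid peroxides, rose by 1.93 ± 0.27 (10.77 in the jejunum and 8.84 in the ileum, adjusted p = 1.08e-05), and GSTT1, a glutathione transferase, by 1.77 ± 0.28 (adjusted p = 4.2e-05). GPX2, the peroxidase named for the gut epithelium, fell by 1.48 (5.81 in the jejunum and 7.29 in the ileum, adjusted p = 2.33e-05), as did GSTA2 (7.15 in the jejunum and 8.63 in the ileum, adjusted p = 1.09e-05). The superoxide and peroxide list gave 3 higher of 4, with catalase (CAT) at 12.11 in the jejunum and 11.39 in the ileum (adjusted p = 7.09e-05). The other two were the superoxide dismutases SOD1, of the cytosol (0.23 ± 0.08, adjusted p = 0.0358), and SOD2, of mitochondria (0.26 ± 0.09, adjusted p = 0.0344).

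The quinone, aldehyde and conjugation list, around NQO1, gave 9 higher and 3 lower of 20. CYP1A1, which oxidises aromatic compounds, led it with 3.27 ± 0.43 (adjusted p = 5.23e-06), followed by the retinal dehydrogenase ALDH1A1 with 2.15 ± 0.29 (adjusted p = 8.58e-06) the conjugate exporter ABCC2 with 1.51 ± 0.17 (adjusted p = 1.12e-06) and the steroid reductase AKR1D1 with 0.96 ± 0.23 (adjusted p = 0.00298). The heme and iron list, around HMOX1, gave 7 higher and 3 lower of 12. HMOX2, the constitutive heme oxygenase, rose by 0.50 ± 0.08 (adjusted p = 4.53e-05), the iron exporter SLC40A1 by 1.16 ± 0.29 (adjusted p = 0.00507) and ACO1, the cytosolic aconitase that also acts as an iron regulatory protein, by 0.67 ± 0.11 (adjusted p = 0.000112), while the iron reductase CYBRD1 fell by 0.77 (adjusted p = 0.00666). SLC40A1 was dim, at 4.51 in the jejunum and 3.35 in the ileum, where the median probe set mean was 4.65. The metal handling list, around MT3, gave 5 higher and 1 lower of 11, among them the manganese exporter SLC30A10 at 0.98 ± 0.11 (adjusted p = 1.48e-06), the zinc exporter SLC30A1 at 0.28 ± 0.07 (adjusted p = 0.00628) and the copper-transporting ATPase ATP7B at 0.24 ± 0.07 (adjusted p = 0.0162).

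The lists of regulators and of thioredoxin gave smaller differences. Of 8 NRF2 regulators 4 were higher and 0 lower, led by MAFF, a small partner protein of NRF2, at 0.65 ± 0.16 (adjusted p = 0.00523) and the KEAP1-binding autophagy receptor SQSTM1 at 0.53 ± 0.09 (adjusted p = 6.8e-05). The others were CUL3, the ubiquitin ligase scaffold that works with KEAP1, at 0.23 ± 0.07 (adjusted p = 0.0215) and MAFG, another small partner, at 0.15 ± 0.05 (adjusted p = 0.0469). The thioredoxin and peroxiredoxin list gave 6 higher and 2 lower of 18, with the methionine sulfoxide reductase MSRB3 at 0.74 ± 0.22 (adjusted p = 0.0175), mitochondrial PRDX3 at 0.48 ± 0.07 (adjusted p = 2.1e-05) and TXNDC12 of the endoplasmic reticulum at -0.39 ± 0.07 (9.58 in the jejunum and 9.97 in the ileum, adjusted p = 0.000121). The selenoprotein SELENOM, also of the endoplasmic reticulum, was at -0.39 ± 0.06 (adjusted p = 2.39e-05). MSRB3 was dim, with a mean of 4.39 where the median probe set mean was 4.65. NADPH supply gave 2 higher and 1 lower of 5, with malic enzyme ME1 at 0.86 ± 0.24 (adjusted p = 0.0105), the mitochondrial transhydrogenase NNT at 0.28 ± 0.09 (adjusted p = 0.0219) and transaldolase TALDO1 at -0.36 ± 0.07 (adjusted p = 0.000417).

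Genes most like each member were sought among 8393 other genes over 46 arrays, after removing segment, feed and batch; 2 arrays come from most birds, so these correlations describe the arrays and carry no test. GCLC was most like GCSH (r = 0.87), of the glycine cleavage system, TIMM9 (0.85), of mitochondrial protein import, and STT3B (0.85), of protein glycosylation in the endoplasmic reticulum. GCLM was most like ACAD8 (0.82), MRPL28 (0.80) and C12orf65 (0.80). NQO1 was most like BAAT (0.81), which conjugates bile acids, ACY1 (0.79) and NDUFB8 (0.78). HMOX1 was most like MME (0.77), a brush border peptidase, RAC3 (0.73) and TXN2 (0.72). MT3 was most like HEBP1 (0.78), a heme-binding protein, MT4 (0.77) and PYGL (0.74). PRDX6 was most like EIF2AK3 (0.73), a kinase of the endoplasmic reticulum stress response, SNX3 (0.70) and SMDT1 (0.67), and TXNRD1 like MTMR10 (0.76), FNBP4 (0.74) and CCNL2 (0.73).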

How the data were processed

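RNA of the 50 scrapings was read on Affymetrix chicken genome arrays. Per the labels' protocols, RNA had to exceed an integrity threshold, for which some tissues were extracted a second time. The deposited table holds a log2 signal for every probe set, made by the authors with RMA, which corrects background, equalises the arrays' distributions and summarises probes, per the submitters' processing notes, which also name limma. Versions and a genome build are not given in the sources used here. Signals ran from 1.84 to 13.99, and array medians from 4.57 to 4.70. Since the distributions were equalised, a difference is relative to most transcripts on the array. The values were used as deposited, with no count of reads behind them, and the number of birds limits the precision.

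Of 38535 probe sets, 153 control and reporter sets were left out. The platform annotation named 1 gene for 27168 of the rest, several for 177 and none for 11037. Of the probe sets with 1 gene, 26853 had a gene ID that matched a current RefSeq gene table, used for names and gene order only. A gene is represented by its probe set with the highest mean over the 50 arrays, and other probe sets are given beside it.

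Each segment's 25 arrays were fitted in limma 3.58.1 (R 4.3.3) with feed and batch as terms. The labels give 3 batches, each with 1 or 2 birds of every feed, and do not say what a batch is. For jejunum against ileum the bird was a fixed block, because the labels give its 2 arrays 1 bird number. Of the 25 jejunum arrays 24 were closest to the ileum array of their own bird; LPC low replicate 4 was not. P-values were adjusted by Benjamini and Hochberg's method over all 38382 probe sets, with a threshold of 0.05, and the fits were tested on simulated data. Correlations over birds used permutation (Python 3.11.15, numpy 2.4.6) and were adjusted over 70 relations. Birds of a group are separate animals.

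The genes, the lists, the markers, the tests and the alternatives were chosen with earlier results of these data known, and nothing here is independent support for those results. The 7 genes are named with all their probe sets. From the wider lists a gene is named when it passed, or the 4 with the largest absolute difference where more than 4 of a list passed. The 3 genes most like a member were sought among genes with a mean above 5. Markers of smooth muscle, fibroblasts, macrophages, T cells, heterophils, goblet cells, erythrocytes and dividing cells were averaged per array. Goblet cell markers averaged 10.14 in the jejunum and 10.44 in the ileum, T cell markers 7.56 and 7.50, heterophil markers 4.63 and 4.57, and markers of dividing cells 6.90 and 6.92. Smooth muscle markers averaged 6.20 ± 0.95 in the jejunum and 5.52 ± 0.66 in the ileum, and fibroblast markers 6.98 ± 1.08 and 6.43 ± 0.86 (SD). The part of cell makeup in the differences between segments was not tested. As alternatives, batch was dropped or made a random block, dim probe sets were removed, the prior was given a trend and made robust, arrays were weighted by quality or centred on their medians, the segments were fitted jointly with birds as random blocks, the fit was limited to the 2 groups compared, and probe sets were averaged per gene. Further ones were the 5′ minus 3′ index as a covariate, leaving out the 4 arrays on the other segment's side, and leaving out each bird in turn. The index as a covariate of the comparisons between levels and between products was added after the data were seen.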

Additional observations from a re-analysis of the deposited data

Results flagged for a closer look

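The brightest probe set of each gene was searched for a bird standing apart from the other 4 of its group, in 70 groups of 5 birds, by the gap to the nearest bird divided by the range of the group (above 0.71). Chance gives about 1 in 20, and 4 groups were found, none of them through an array on the other segment's side of the marker score. TXNRD1 in the jejunum of lysolecithin low replicate 3 was at 3.10, below the next bird at 4.27, in a group that reached 4.48. HMOX1 in the jejunum of lysolecithin high replicate 3 was at 8.95, below the next bird at 9.90, in a group that reached 10.05. The other 2 came from the same ileum array, that of lysolecithin low replicate 2: NQO1 at 10.18, above the next bird at 9.11, and MT3 at 6.86, above the next bird at 4.94. That array also held the highest PRDX6 value of its group, at 10.49.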

How the results depend on the processing

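Across all alternatives, 851 of 895 recomputed values with an unadjusted p under 0.05 stayed on the same side of the threshold and 44 came to pass. Of the 895, 0 turned direction, and of 2109 other values 136 changed sign. Only the jejunum against ileum values of MT3, HMOX1 and NQO1 passed in the main fits. A call could be lost nowhere else, and 0 were lost, so that count says nothing about the feed comparisons. The count of member probe sets that passed was tallied as higher than reported in 20 of 230 recomputations and as lower in 0. In this tally a count of 4 where 3 are reported was taken as the same. A lower count was possible only for jejunum against ileum, because 0 passed in every other main comparison. On LPC high in the jejunum, 1 (PRDX6, second probe set) passed with no batch term (1.22, adjusted p = 0.0488), with only the 2 groups compared (1.22, adjusted p = 0.042), with probe sets of a mean of 6 or more (1.16, adjusted p = 0.0309) and with the bird as a random replicate block (1.20, adjusted p = 0.0464), and 2 passed with array weights (1.27, adjusted p = 0.00524). Of all probe sets, 198 passed there with the replicate block and 908 with array weights, where 43 are reported. In the other fits just named that count was not above 908. The fit of brighter probe sets tested 11863 in the jejunum, 8 of them of members. Leaving out 1 bird at a time gave 0 to 1 member probe sets, with 1 (1.28, adjusted p = 0.048) without LPC high replicate 5. In these fits 0 to 28 of all probe sets passed. On LPC low in the jejunum 2 (both of PRDX6) passed with array weights and with the brighter probe sets. Array weights passed 26 of all probe sets there, where 1 is reported, and the fit of brighter probe sets passed no more than 26. On lysolecithin high in the jejunum 1 (NQO1) passed with the bird as a random replicate block, and leaving out 1 bird gave 0 to 2, with 2 (NQO1 and PRDX6) without lysolecithin high replicate 2. Of all probe sets, 847 passed with that block and 105 to 1224 with 1 bird left out, where 318 are reported. For any feed effect array weights gave 2 in the jejunum and 1 in the ileum, where 284 and 764 of all probe sets passed. On LPC low in the ileum 3 member probe sets passed without the arrays on the other segment's side, 2 with array weights (PRDX6 and the second NQO1 probe set), and 0 to 2 when 1 bird was left out, with 2 (PRDX6) without LPC low replicate 1, which is such an array. Of all probe sets, 2.04% passed without those arrays, 1084 probe sets with array weights and 1 to 777 with 1 bird left out. Between segments 23.6% of all probe sets passed without the birds in doubt, where 19.7% did in the main fit. Of the member probe sets 6 passed in that fit, and 3 to 6 when 1 bird was left out: 6 without LPC low replicate 1 or replicate 4, and 5 without lysolecithin high replicate 1 or LPC low replicate 2. Without the replicate block 3 passed as well, MT3 at 2.72 (adjusted p = 7.45e-05). Between segments 6727 to 8362 of all probe sets passed with 1 bird left out and 6047 without the replicate block, where 7567 are reported. The replicate block over both segments changed no other call. The counts over all probe sets moved more: with the alternatives other than leaving out a bird, lysolecithin high in the jejunum gave 4 to 847 where 318 are reported, LPC high 0 to 908 (43), LPC low 0 to 26 (1) and lysolecithin low 0 to 240 (19). In the ileum lysolecithin low gave 161 to 601 (336), lysolecithin high 0 to 160 (83), LPC low 1 to 1084 (12), LPC high 0 to 93 (0) and lysolecithin low against LPC low 16 to 98 (14), and high against low levels in the jejunum gave 0 to 530 (0). Any feed effect gave 0 to 284 (50) in the jejunum and 5 to 764 (53) in the ileum. The cause of these moves was not tested. Signals near the bottom of the array limit TXNRD1 and the third GCLC probe set, and 5 birds per feed limit every interval.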
